A study of Caenorhabditis elegans with 2 samples.

Results

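The genes described here encode proteins that modify, remodel or assemble chromatin in the nematode Caenorhabditis elegans, and the question was which of their promoters carried peaks of the transcription factor ZIP-5. They were chosen by gene name, as the protein-coding genes whose symbol starts with jmjd, set, met, hda, chaf, swsn, hpl, isw or utx, which gave 62 of the 19973 protein-coding genes on the nuclear chromosomes. The set was proposed with earlier results of the same peak lists known, among them strong peaks next to chaf-2 and jmjd-1.2, so its peak counts and signals are given as a description with no test. ZIP-5 was expressed from a transgene (wgIs544, strain OP544, unc-119(tm4063)) with a GFP-FLAG tag at its C-terminus. It was recovered with an anti-GFP antibody from whole hermaphrodite late embryos, 4 hours after synchronization by egg bleaching. All libraries were of this kind, 2 biological replicates of 1 group, so there is no comparison between groups. Whole embryos mix all cell types, the control behind the lists was not used here, and the lists carry no read counts, so their depth is unknown.

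Chromatin packs DNA around histones, and the proteins of this set write, erase, read or move those histones. Many SET domain proteins attach methyl groups to histone lysines, and many Jumonji proteins remove them. Deacetylases remove acetyl groups, SWI/SNF and ISWI complexes slide or eject nucleosomes, HP1 proteins bind methylated H3K9 in heterochromatin, and chromatin assembly factor 1 (CAF-1) deposits histones behind the replication fork. ZIP-5 is a basic leucine zipper (bZIP) protein, a class that binds short, often palindromic DNA sites as dimers.

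A gene was counted where a peak summit lay between 1000 bp upstream and 200 bp downstream of its outermost annotated start, here called its window. The optimal set holds 746 peaks that passed an IDR (irreproducible discovery rate) threshold, which rests on how well peak ranks are reproduced. It was derived from both replicate lists and a list called on both alignments together. A peak in it need not rank alike in both replicates. Of its 730 nuclear peaks, 729 had a match in both replicate lists. In the optimal set 8 of the 62 genes had such a summit (12.9%), against 3.32% of all protein-coding genes. They were chaf-2, jmjd-1.2, set-2, swsn-3, hda-11, set-25, hda-6 and set-21, in the order of their signal. None of the 8 shared its peak with another of them, so the count is also one of 8 different peaks. For 5 of the 8 the summit also lay in the window of a gene on the other strand. Those peaks cannot be given to the chromatin gene by position. The other lists are longer, because they keep peaks and background regions that entered the IDR step. In the list called on both alignments together (4380 entries), 20 of the 62 genes had a summit (32.3%), against 10.8% of all genes. In the replicate 1 list (6253 entries) 17 had one (27.4%, against 12.6%), and in the replicate 2 list (6945 entries) 21 (33.9%, against 13.6%). A summit in both replicate lists was present for 14 genes (22.6%), against 7.36% of all genes. The 14 comprise the 8 genes of the optimal set and chaf-1, hda-1, set-4, set-16, set-26 and swsn-1. The share of chromatin genes was thus above that of all genes in each list. Whether this difference is particular to these genes was not tested.

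**Figure D1:**
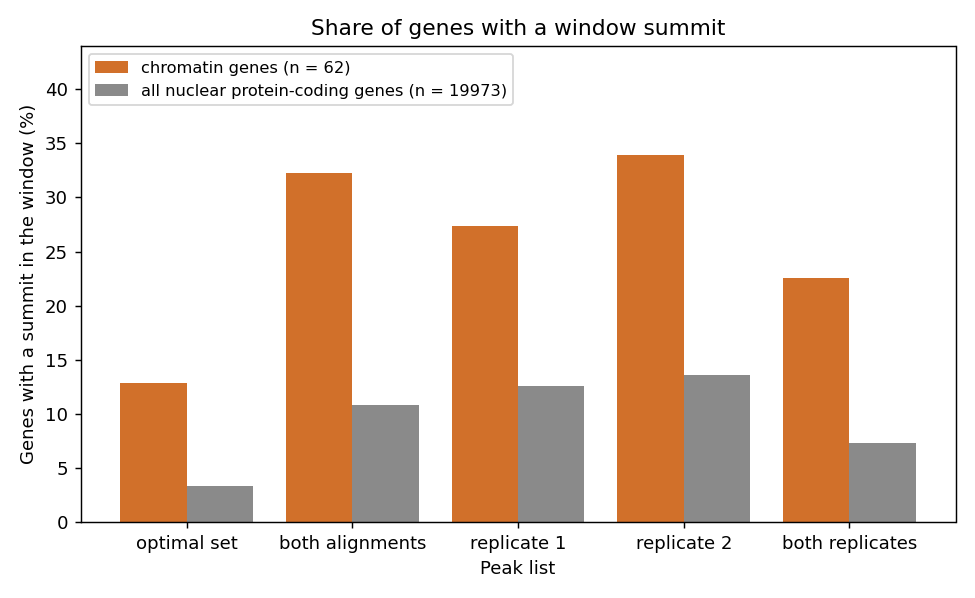
Percent of genes with a summit in the window, for the 62 chromatin genes (orange) and all 19973 nuclear protein-coding genes (grey), in the optimal set, the list called on both alignments, each replicate list, and both replicate lists at once. The orange bars run from 12.9% to 33.9% and the grey bars from 3.32% to 13.6%; bars are complete counts and carry no error.

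The summits of jmjd-1.2, set-2, hda-11, hda-6, set-21, set-25 and swsn-3 are shown first as sequence, because the peaks differ in the words they carry. The bases are those within 100 bp of the optimal summit, cut back to the part outside exons of protein-coding genes, from the RefSeq WBcel235 genome (the coordinates of ce11), 5′ to 3′ along the strand of the named gene. Capitals mark 3 words of 7 letters on either strand, TAGGCCA and the words ATGGCCG and GTGCGGC, which were read off these summits after they were seen.
jmjd-1.2, chrIV:4660539-4660739, plus strand: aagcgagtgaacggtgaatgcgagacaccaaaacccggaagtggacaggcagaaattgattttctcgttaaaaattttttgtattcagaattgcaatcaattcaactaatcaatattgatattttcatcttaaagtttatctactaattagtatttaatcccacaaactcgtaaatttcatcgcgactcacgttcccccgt
set-2, chrIII:4930383-4930583, minus strand: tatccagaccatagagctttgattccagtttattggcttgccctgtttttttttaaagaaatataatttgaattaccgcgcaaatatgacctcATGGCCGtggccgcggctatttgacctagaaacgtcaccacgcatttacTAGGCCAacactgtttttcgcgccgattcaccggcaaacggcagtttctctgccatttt
hda-11, chrV:10526041-10526183, plus strand: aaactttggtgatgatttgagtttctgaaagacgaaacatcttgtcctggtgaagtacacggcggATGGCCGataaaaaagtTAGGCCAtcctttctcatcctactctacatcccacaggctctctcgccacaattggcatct
hda-6, chrIV:5364307-5364439, minus strand: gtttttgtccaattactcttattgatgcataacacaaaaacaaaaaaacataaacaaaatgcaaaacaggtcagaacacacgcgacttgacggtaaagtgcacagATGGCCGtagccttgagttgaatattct
set-21, chrIV:4390591-4390718, plus strand: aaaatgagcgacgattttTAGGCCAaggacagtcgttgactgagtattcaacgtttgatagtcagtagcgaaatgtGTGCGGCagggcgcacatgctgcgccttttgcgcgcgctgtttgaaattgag
set-25, chrIII:13293091-13293284, minus strand: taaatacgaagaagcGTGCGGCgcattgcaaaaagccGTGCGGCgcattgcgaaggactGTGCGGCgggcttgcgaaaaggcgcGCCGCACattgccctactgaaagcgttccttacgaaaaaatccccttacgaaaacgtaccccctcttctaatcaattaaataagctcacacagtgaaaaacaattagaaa
swsn-3, chrIII:2768744-2768944, minus strand: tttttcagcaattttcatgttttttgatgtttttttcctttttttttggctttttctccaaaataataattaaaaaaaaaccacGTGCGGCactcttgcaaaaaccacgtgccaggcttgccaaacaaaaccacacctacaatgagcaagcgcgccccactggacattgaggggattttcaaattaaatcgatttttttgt

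TAGGCCA lay within 100 bp of the summit at set-2, hda-11 and set-21, ATGGCCG at set-2, hda-11 and hda-6, and GTGCGGC at set-21, set-25 and swsn-3. At hda-11 TAGGCCA ended 12 bp before the summit and ATGGCCG 29 bp before it, both along the strand of the gene. At set-2 ATGGCCG ended 1 bp before the summit and TAGGCCA began 42 bp after it. The set-2 copy is preceded by C and so forms CTAGGCCA, a word taken from earlier results of these peaks. At hda-6 ATGGCCG lay 5 to 11 bp after the summit, and a copy on the other strand, in the first exon and not printed, lay 39 to 45 bp after it. The set-25 summit stood apart, with 4 copies of GTGCGGC, starting 85, 63 and 41 bp before the summit on the strand of the gene and 16 bp before it on the other. At least 1 of the 3 words was at 6 of the 8 summits. Over all 730 nuclear optimal summits 28.5% had at least 1 of them, as did 37.6% of the 457 summits in promoter windows and 3.19% of the 201 bp windows just upstream of all outermost starts. Singly, TAGGCCA was at 15.5%, ATGGCCG at 8.63% and GTGCGGC at 8.08% of the nuclear summits, and at 1.59%, 0.816% and 0.946% of the windows at starts. Since the words were picked on the members, the count of 6 describes only how they were found.

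The summits without any of these words were those of jmjd-1.2 and chaf-2, which had the strongest peaks of the set. The sequence at chaf-2 is not shown here. Of the 7 words searched that were not read off the members, only CTAGGCCA occurred, at set-2. The GC box GGGCGG (6.01% of windows at starts), the C/EBP site TTGCGCAA (0.335%), ACTCCTCT (0.731%), the cyclic AMP response element TGACGTCA (0.941%), TTACGTAA (0.26%) and the AP-1 site TGACTCA (2.52%) were not found within 100 bp of any of the 8 summits. Among all 730 nuclear summits these 6 words were at 12.3%, 1.78%, 6.99%, 0.548%, 0% and 1.92%, in that order. GGGCGG, TTGCGCAA and ACTCCTCT, like CTAGGCCA, were taken from an earlier search of these same peaks. Their higher shares at summits than at starts are therefore no independent result. All words were searched on both strands, and TAGGCCA lies within CTAGGCCA. The mean GC content of the 201 bp at the 8 summits was 40.4%, close to 41.8% over all nuclear summits, with a range from 35.3% at jmjd-1.2 to 47.8% at set-25.

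By far the strongest peaks of the set were those of chaf-2 and jmjd-1.2, and both replicates placed them almost equally high. chaf-2 (WBGene00022141) encodes the middle subunit of CAF-1. Its peak (chromosome I, 1822997 to 1823405) had a signal value of 830.4, rank 7 of the 746 optimal peaks and 4 of the 457 in promoter windows. The signal is the score of the authors' peak caller and has no stated scale, so it compares peaks only within a list. In the replicate 1 list the peak had a signal of 421.5 and in the replicate 2 list 409.7, rank 8 in each, and both placed the summit at the same base. That base lay -247 bp from the start of chaf-2, and the summit of the optimal peak at -249 bp. The sequence between chaf-2 and Y71G12B.30, which are transcribed away from each other from starts 499 bp apart, holds the whole peak, and the summit is 250 bp upstream of Y71G12B.30. The peak therefore cannot be given to either gene by position.

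jmjd-1.2 (WBGene00017920) encodes a histone demethylase that, in this nematode, is known for its part in the response to mitochondrial stress. The peak (chromosome IV, 4660454 to 4660839) had a signal of 744.1, rank 11 of 746 and 7 of the 457 promoter peaks. Replicate 1 gave 365.2 (rank 11) and replicate 2 378.9 (rank 9), with summits 11 bp apart. Like that of chaf-2 it lay in intergenic sequence between divergent genes, at -352 bp from jmjd-1.2 and -438 bp from F29B9.11. Both replicate lists also had a second, weaker summit nearer to jmjd-1.2, at -164 bp in replicate 1 (signal 79.1, rank 388) and at -137 bp in replicate 2 (27.6, rank 5171). That summit was not kept as a separate peak in the list called on both alignments. No other Jumonji gene had an optimal peak. Of the 9, jmjd-2 had a summit in the list of replicate 1 but not of replicate 2, and jmjd-4 and jmjd-5 in that of replicate 2 but not of replicate 1. jmjd-1.1, the H3K27 demethylase genes utx-1, jmjd-3.1 and jmjd-3.2, and jmjd-3.3 had none in any list. jmjd-3.1, known with jmjd-1.2 from the response to mitochondrial stress, was thus without a peak in its window.

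**Figure D2:**
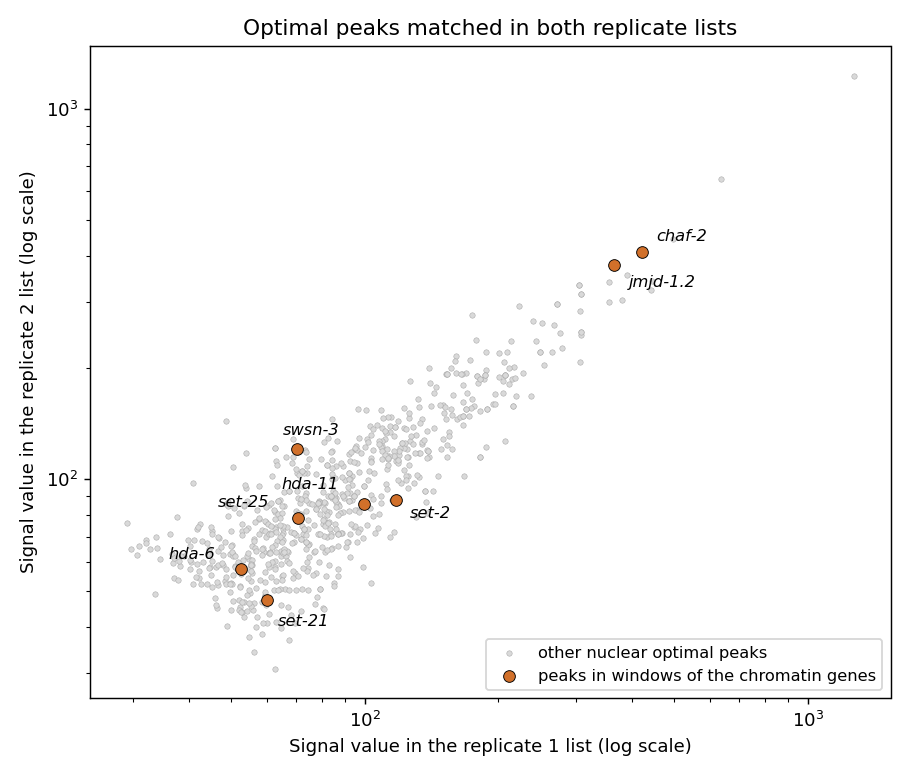
Signal value of each nuclear optimal peak in the replicate 1 list (horizontal, log scale) and in the replicate 2 list (vertical, log scale), 729 peaks with a match in both; orange points are the 8 peaks in windows of chromatin genes, grey points the others. The match is the strongest overlapping entry of a list, so some neighbouring optimal peaks have the same pair of values. chaf-2 and jmjd-1.2 sit near the top right, at 365.2 or more in both lists, and the other 6 between 47.2 and 120.7, within the grey cloud.

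The 6 other peaks had lower signals, from 205.3 at set-2 (rank 245 of 746) to 108.4 at set-21 (rank 638). They were also less alike in both replicates. Over all 8 the ratio of replicate 1 to replicate 2 signal ran from 0.58 at swsn-3 to 1.33 at set-2, with a median of 1.00. For comparison, 90% of the 729 matched nuclear peaks had ratios between 0.60 and 1.47, so swsn-3 lay just outside that range. Each of the 729 was matched to the strongest overlapping entry of a list. Some neighbouring peaks therefore have the same pair of values, which are not in each case their own. Spearman's rho between the ranks in both lists was 0.83 over the 8 peaks, 0.82 over the 14 genes with a summit in both lists and 0.81 over the 729 peaks. These are descriptions, since peaks of 1 library share its depth and the optimal set was derived with a measure of rank agreement.

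Among the SET domain genes, optimal peaks lay at set-2, set-25 and set-21. set-2 (WBGene00004782) encodes the catalytic subunit of the nematode SET1 complex, which methylates H3K4 at active promoters. Its peak (chromosome III, 4930396 to 4930526, signal 205.3, rank 245) is the narrowest of the 8 at 131 bp and lay at -279 bp in no other gene's window. The signal was 117.4 in replicate 1 (rank 191) and 88.1 in replicate 2 (rank 329). The next gene upstream, C26E6.12, is on the same strand and ends 397 bp away, measured from the start of set-2. set-16, which encodes an MLL-like H3K4 methyltransferase, had no optimal peak. It had a summit at -157 bp in the list of both alignments (signal 74.9, rank 1126 of 4380), which also lay in the window of drr-2. Replicate 1 had an entry at -164 bp (37.6, rank 1235). Replicate 2 had one at -345 bp (36.9, rank 1722) and a weaker one at -139 bp (27.0, rank 5544).

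set-25 (WBGene00012802) encodes the methyltransferase that trimethylates H3K9 in heterochromatin. Its peak (chromosome III, 13292962 to 13293405, signal 148.9, rank 421) had its summit at -94 bp, in no other window, and the next gene, npp-18, begins 3762 bp upstream. The signal was 70.5 in replicate 1 (rank 450) and 78.7 in replicate 2 (rank 397), but the summits of the replicate peaks were 160 bp apart, the most of the 8. met-2 and set-32, the other H3K9 methyltransferase genes of the set, had no summit in any list, and neither had met-1, the H3K36 methyltransferase gene.

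set-21 (WBGene00021282), a SET domain gene, had the weakest peak of the 8 (chromosome IV, 4390396 to 4390839, signal 108.4, rank 638). The signals in the replicate lists were 60.1 (rank 561) and 47.2 (rank 889), with summits 83 bp apart. This summit was at -226 bp from set-21 but at -28 bp from rpl-7A, a ribosomal protein gene on the other strand whose start is nearer. It is the only one of the 8 peaks whose nearest start is not that of the chromatin gene. A snoRNA gene, Y24D9A.9, lay 310 bp from the summit. Of the 23 SET domain genes given no mark here, 18 had no summit in any list, as had most of all protein-coding genes. set-18, set-19, set-20 and set-27 had one in a single replicate list. The strongest of these was set-20, with a summit at -34 bp in replicate 1 (52.0, rank 691) and none in replicate 2.

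The H4K20 methyltransferase gene set-4 and the PHD and SET domain gene set-26 were in both replicate lists but not in the optimal set. For set-4 the ranks were far apart, 5802 of 6253 in replicate 1 (24.5) and 854 of 6945 in replicate 2 (48.2). For set-26 the ranks were 3006 (29.1) and 2393 (33.5), and the summit of the list of both alignments lay at -733 bp from set-26 but 3 bp downstream of the start of tsr-2, in its exon. set-1, the other H4K20 methyltransferase gene, and set-9, a close paralogue of set-26, had no summit in any list. How reads from stretches that paralogues share were placed is not given in the sources used here.

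Among the deacetylases, which remove acetyl groups from histones and other proteins, 2 of 8 genes had an optimal peak. hda-11 (WBGene00007953), the nematode homologue of human HDAC11, had a peak (chromosome V, 10525919 to 10526362) with a signal of 186.2, rank 283, and its summit at -43 bp. Replicate 1 gave 99.7 (rank 257) and replicate 2 85.9 (rank 350). hda-6 (WBGene00018319), the homologue of the largely cytoplasmic HDAC6, had one (chromosome IV, 5364117 to 5364560) with a signal of 118.6, rank 572, and its summit at -33 bp, the nearest of the 8 to the start of its own chromatin gene. Replicate 1 gave 52.5 (rank 682) and replicate 2 57.2 (rank 657). Both summits lay between divergent genes, C35A5.8 at 276 bp from hda-11 and F41H10.4 at 253 bp from hda-6, counted from start to start, and both peaks, 444 bp wide, extend beyond the intergenic sequence. hda-1, the class I deacetylase gene of the nematode NuRD and SIN3 complexes, came closest to the optimal set among the members outside it, with a signal of 87.3 (rank 848 of 4380) in the list of both alignments against 95.2 for the weakest optimal peak. The values were 37.0 in replicate 1 (rank 1293) and 51.6 in replicate 2 (rank 765). Its summit at -971 bp was near the far edge of the window and at -289 bp from ril-1, the nearest start. hda-2, hda-3, hda-4, hda-5 and hda-10 had no summit in any list.

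Of the remodelling and assembly genes, swsn-3 had an optimal peak beside that of chaf-2. swsn-3 (WBGene00022182) encodes an HMG-box subunit of SWI/SNF. The peak (chromosome III, 2768622 to 2769065) had a signal of 190.6, rank 276, with the summit at -165 bp, and lay in an intron of cox-6B, a cytochrome c oxidase subunit gene of the other strand, whose annotated span holds the start of swsn-3. Replicate 1 gave 70.3 (rank 453) and replicate 2 120.7 (rank 184). The core subunit gene swsn-1 had a summit in both replicate lists, but not at the same place. The summit was weak in replicate 1 (27.7, rank 3628, at -436 bp) and stronger in replicate 2 (45.0, rank 983, at -91 bp). swsn-7 (60.7, rank 595), swsn-4, the ATPase gene (47.2, rank 890), and swsn-2.2 (35.1, rank 2056) had one in replicate 2 but not in replicate 1, and swsn-6 and swsn-9 had none. chaf-1, which encodes the large CAF-1 subunit, had summits at -102 bp in replicate 1 (47.0, rank 792) and -10 bp in replicate 2 (34.9, rank 2089), and a signal of 79.7 (rank 1003) in the list of both alignments. That is far below the 830.4 of chaf-2 in the same list. The small CAF-1 subunit is shared with other complexes, and of its candidate genes lin-53, which also belongs to the DREAM complex, had a summit in both replicate lists and rba-1 in none. The ISWI gene isw-1 and the HP1 genes hpl-1 and hpl-2 had no window summit. For hpl-2 the nearest optimal summit was at -3719 bp (signal 357.2).

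**Figure D3:**
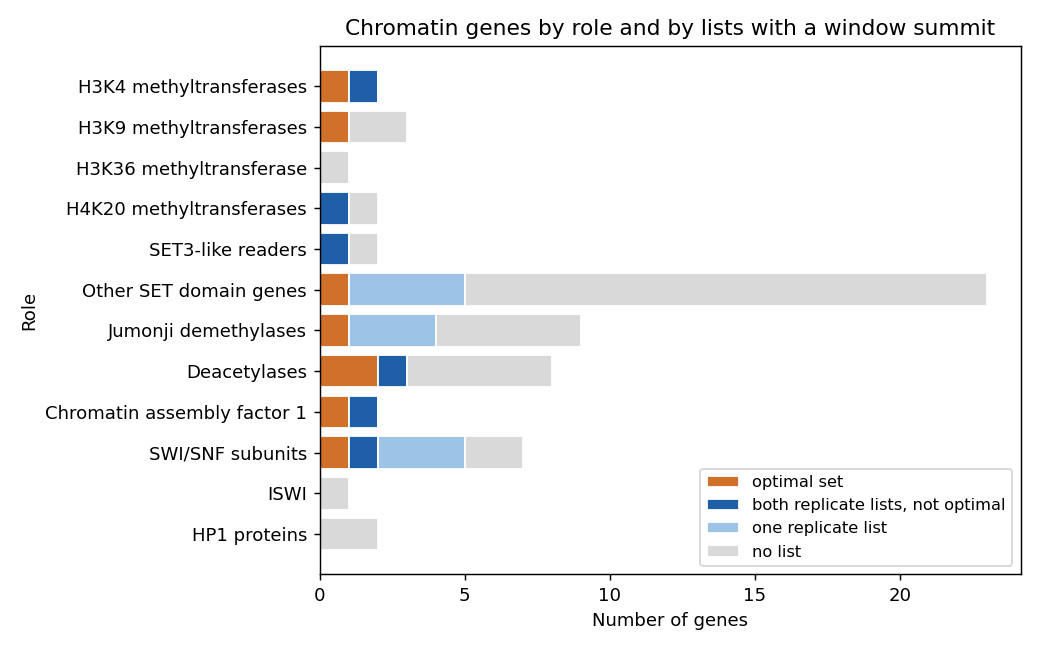
Number of chromatin genes in each role (bar length), split by where a summit lay in the window: optimal set (orange), both replicate lists but not the optimal set (dark blue), 1 replicate list (light blue) or none (grey). The orange segments are spread over 7 roles, 2 genes among the deacetylases and 1 in each of the others, while 18 of the 23 other SET domain genes are grey. Most of all protein-coding genes also had no window summit in any list.

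The 8 peaks were spread over 7 of the 12 roles, and no role had more than 2. In all, 38 of the 62 genes had no summit in any list and 10 had one in a single replicate list. Among all protein-coding genes, 12.6% had a summit in the replicate 1 list, 13.6% in the replicate 2 list and 7.36% in both. Most of all protein-coding genes thus had none either. By chromosome, 3 of 11 members on III had an optimal peak (5.23% of all genes there), 3 of 9 on IV (3.29%), 1 of 10 on I (4.79%) and 1 of 7 on V (2.5%). None of the 13 members on X was in both replicate lists or in the optimal set, against 4.5% and 1.24% of all X-linked protein-coding genes. None of the 12 on II had an optimal peak, where 3.51% of all genes had one.

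The 8 summits lay close upstream of the annotated starts, which need not be transcription starts, since many nematode transcripts are trans-spliced. They ranged from -352 to -33 bp with a median of -196 bp. The median over the 664 genes with an optimal summit was -244 bp, with a range from -999 to 154 bp. As no summit of the 8 lay beyond -352 bp, the edges of the window did not decide any of them. The nearest optimal summits of members outside the window were those of jmjd-5 (-3357 bp), set-27 (-3509 bp) and hpl-2. The signals had a median of 188.4, against 167.8 over all 457 promoter peaks, and 5 of the 8 were at or above the latter. Windows on both strands held 5 of the 8 summits (62.5%), against 44.4% of the 457. The next gene upstream was on the opposite strand for 7 of the 8, for 72.3% of all genes with an optimal summit and for 46.2% of all genes. Among the 48 members with neither an optimal peak nor summits in both lists it was 39.6%. The median gap to the next gene upstream was 336 bp for the 8 and 1310 bp for those 48, against 549 bp for all genes with an optimal summit and 936 bp for all genes. Where a start lay inside another gene, that gene was counted as the next one, with a gap of 0 bp. This was so for swsn-3 in cox-6B, for 26 of the 664 genes and for 1403 of all genes. The part that the strand and distance of the next gene play in the counts was not tested.

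**Figure D4:**
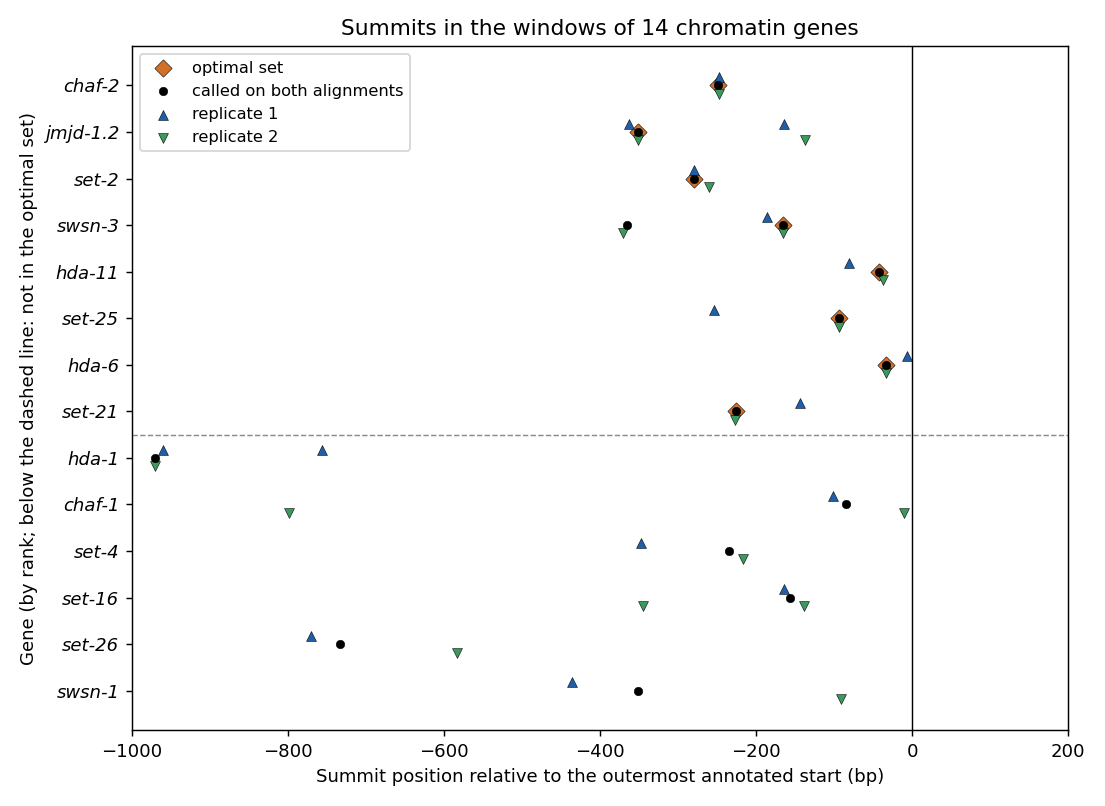
Summit position relative to the outermost annotated start (bp, negative is upstream) of the 14 genes with a summit in both replicate lists, in order of rank; diamonds are optimal peaks, circles the list called on both alignments, and triangles replicate 1 (up) and replicate 2 (down). The 8 genes above the dashed line are in the optimal set, with optimal summits from -352 to -33 bp; below it the summits of both replicates lie farther apart for several genes, and hda-1 lies near the edge at -971 bp.

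Chromatin genes outside the name rule also had peaks. Of 64 further genes listed by role 63 were in the annotation, and 9 of them had an optimal summit (14.3%, against 3.32% of all genes) and 21 a summit in both replicate lists (33.3%, against 7.36%), beside 12.9% and 22.6% of the 62, a difference that was not tested. For 6 of the 9 the summit also lay in the window of another gene, named with each, so these peaks cannot be given to the chromatin gene by position. Histone acetylation was represented by mys-1, a MYST acetyltransferase gene (signal 243.8, rank 173, -295 bp, shared with VC5.2), and cbp-1, the p300/CBP gene (102.9, rank 674, -916 bp). The H3K4 methylation complex, in which SET-2 acts, was represented by rbbp-5 (239.4, rank 179, -172 bp, shared with tpp-2), while ash-2, wdr-5.1, dpy-30, cfp-1 and hcf-1 had no summit in any list. Histone chaperones were represented by unc-85, an Asf1 homologue (172.3, rank 328, -433 bp), and hira-1 (133.9, rank 485, -759 bp). Among the readers of histone methylation were lin-61, an MBT repeat gene (303.1, rank 111, -366 bp, shared with bub-1), cec-3, a chromodomain gene (208.8, rank 237, -111 bp, shared with T09A5.15 and sds-22), and mrg-1 (179.2, rank 302, -238 bp, shared with spcs-2). Last, ruvb-1, which encodes a RuvB-like AAA ATPase of remodelling complexes, had a signal of 129.1 (rank 509, -32 bp, shared with tofu-1). The strongest of these 9 was well below chaf-2 and jmjd-1.2 in the same list. Of the 7 NuRD and MEC genes and the 4 other demethylase genes, none had an optimal summit. The same held for the 6 sirtuin and corepressor genes and the 4 genes of arginine and H3K79 methylation. Beside a share of 3.32% of all genes, an empty class of such a size says little. This list too was written with results of these data known.

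All these peaks are places where DNA was recovered with the antibody. An immunoprecipitation without the tag was not used here, so loci that any immunoprecipitation recovers cannot be told apart from sites of ZIP-5. No expression was measured, so the values say nothing of whether a gene was active.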

How the data were processed

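Peak lists of ZIP-5-eGFP ChIP-seq in ce11 coordinates were used, 1 per replicate, 1 called on both alignments and the optimal IDR set. Per the submitters' file listings, each replicate list came from its alignment and a control, and the optimal set from the other 3. The aligner, the peak caller and the IDR threshold: not given in the sources used here. The deposited signal value is a score per peak and was used only within a list. The ce10 lists were not used here.

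Genes came from the Ensembl 115 annotation of WBcel235, the sequence from RefSeq, and all peaks ended inside its chromosomes. Summits, windows, ranks and words were computed in Python 3.11.15 with scipy 1.17.1, and the window rule was tested on simulated data. No test was made over the members: members, lists and words were chosen with earlier results of these data known. Named were all listed genes with an optimal summit and all members in both replicate lists, and others by role; values of set-20, the further swsn genes and hpl-2, and the genes that close the observations, were added after they were seen. One of 64 further chromatin genes, egr-1, had no match in the annotation. Other windows, any or the nearest start, overlap, stronger peaks and single replicates were tried as alternatives. Overlap means at least 1 bp.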

Additional observations from a re-analysis of the deposited data

How the results depend on the processing

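The 8 genes with an optimal summit were the same 8 with windows of 500 or 2000 bp upstream or 0 bp downstream. They were also the same with any annotated start, with overlap of peak and window in place of the summit, and without peaks near tRNA or snoRNA genes. Their share stayed at 12.9%, while that of all genes ran from 2.67% (500 bp upstream) to 4.17% (2000 bp upstream). With each summit given to the nearest start alone, 7 were left, without set-21, and the share of all genes was 2.2%. In the stronger 50% of the optimal peaks 5 were left, without hda-6, set-21 and set-25 (8.06%, against 1.87% of all genes). As many of the strongest peaks of a single replicate list were also used. Without replicate 1 the count was 8 (12.9%, against 3.27% of all genes), where swsn-7 entered and set-21 left. Without replicate 2 it was 9 (14.5%, against 3.29% of all genes), where set-20 entered. The further chromatin genes with an optimal summit numbered 6 to 11 over the same settings, against 9. Genes in both replicate lists numbered 12 to 16, against 14, and the peaks of both lists overlapped each other for all 14, a setting added after the data were seen. Members in the list of both alignments numbered 15 to 23, against 20. For these ranges, in both replicate lists and in the list of both alignments, the shares of all genes are not given here. Of the words not read off the members, 1 summit had a match within 50, 100 or 200 bp, and with the 3 words read off the members, added after the data were seen, 6 had one. A peak below the threshold of a list is not in it, so a gene without a summit may still hold weaker signal. No paired analysis was possible because there is 1 group.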

Other observations

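The words read off the chromatin gene summits were not spread evenly over promoter peaks of different strength, and the values are given with no explanation. Ordered by signal, 6 of the 50 strongest of the 457 promoter summits had at least 1 of the 3 words within 100 bp (12%), which is the class that holds chaf-2 and jmjd-1.2. In the next 5 classes of 50 the shares were 42%, 50%, 50%, 48% and 38%. Then they were 42%, 26% and 30%, and the last 7 peaks held 3. The fourth class, with the peaks of set-2, swsn-3 and hda-11, was thus among those where the words were most frequent. The mean GC content of the windows was 38.3% in the strongest class and 38.7% to 41.3% in the following 8. The words were picked on members of these classes, and no test was made.

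Several further chromatin genes had a summit in both replicate lists without an optimal peak. They include the acetyltransferase genes mys-4 and pcaf-1, the corepressor genes sin-3 and spr-1, and the remodelling genes chd-1, ssl-1, ruvb-2, xnp-1 and let-526. With ruvb-1 of the optimal set, 6 of the 10 listed remodelling genes were in both replicate lists, against 33.3% of that whole list and 7.36% of all genes. That is the highest count of any class, but the class is also the largest. Among the acetyltransferase genes it was 4 of 7, and the classes were compared only after their values were seen. lin-13, lin-53 and dot-1.1 complete the group.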
